A study of Mus musculus with 32 samples.

Results

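A set of 10 genes for plasma membrane amino acid transporters was followed across mouse CD4+ T cells of both genotypes: Slc7a5, Slc7a6, Slc3a2, Slc7a1, Slc7a3, Slc1a5, Slc1a4, Slc38a1, Slc38a2 and Slc6a9. They were taken by name from the count files, as 10 of the 24302 genes listed there, and all 10 were among the 12332 genes that passed the filter on low counts. The cells came from the spleen, inguinal and axillary lymph nodes of mice of strain C57BL/6J, and their poly(A) RNA was sequenced in 32 libraries, 4 in each of 8 groups. The labels give the genotype as WT or as a knockout of Nur77, the nuclear receptor encoded by Nr4a1, and the second genotype is called KO-labelled here. Each genotype had unstimulated cells (labelled control), cells stimulated through CD3 and CD28 with antibodies over 12 h, and cells stimulated in the same way with XCT790 or Compound A (CompA) added, each at 10 µg/ml. XCT790 is known to act on ERR-alpha, an orphan nuclear receptor, as an inverse agonist, and the labels give only the code name of CompA. The protocol text does not except the controls from stimulation, so the groups follow each sample's own label, and the sources used here name no vehicle. They also give no age, no description of the knockout allele and no word on whether a group's 4 libraries were made from different animals, so p-values measure only how these samples vary, and that spread may be technical.

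A T cell that is activated through its antigen receptor grows and makes protein at a high rate, and it takes up the amino acids for this through carriers of the solute carrier (SLC) families. Slc3a2 encodes the heavy chain CD98, which brings light chains such as LAT1 (Slc7a5) and y+LAT2 (Slc7a6) to the membrane, where they exchange 1 amino acid for another. Other carriers act alone: the CAT proteins (Slc7a1, Slc7a3) carry arginine and lysine, ASCT2 (Slc1a5) and the SNAT proteins (Slc38a1, Slc38a2) carry glutamine and other small neutral amino acids, ASCT1 (Slc1a4) carries serine and its relatives, and GlyT1 (Slc6a9) carries glycine. Several of these genes are textbook targets of ATF4, the transcription factor that is made when amino acids are short, and Myc is known to act on others in activated T cells.

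Libraries held 16.0 to 23.7 megacounts in genes, and levels are given as CPM, the counts in a gene per megacount. Nr4a1, the targeted gene, had no reduced transcript level where a knockout was labelled: without stimulation its mean was 71.7 CPM (WT) against 94.2 CPM (KO-labelled), and with stimulation 166 against 332 CPM. The position of the knockout allele is not given, and an exchange of genotype labels was not tested. The library numbers of the genotypes do not overlap, so genotype cannot be told apart from the order of the libraries. T cell markers (8 of 8 listed genes in the files) summed to 3687 to 5049 CPM in the 32 libraries. The WT stimulated libraries stood apart in the macrophage markers given next, and a retained unstimulated share was estimated for them. Over 72 genes that had at least 10 CPM in both unstimulated groups and under 2 percent of that level in the 5 other stimulated groups, they kept 15.5, 45.6, 22.3 and 21.6 percent of the WT unstimulated level. Over the same genes the KO-labelled unstimulated libraries stood at 0.357, 0.618, 0.467 and 0.808 times the WT unstimulated level. The low level of these genes in the other stimulated groups is set by how they were chosen and is no evidence of a difference. Macrophage and dendritic cell markers (13 of 14 listed genes in the files, with Cd163 at 0 in the KO-labelled XCT790 group) summed to 1802 to 2787 CPM in WT unstimulated, 735 to 1686 in KO-labelled unstimulated, 437 to 1082 in WT stimulated and 6.47 to 26.0 CPM in the other stimulated groups. The main counts that use the WT stimulated group are therefore also given with that share of the WT unstimulated mean subtracted from each of its libraries, called the subtraction here. The subtraction treats every gene alike. Whether the share holds for T cell transcripts or only for macrophage and dendritic cell content cannot be told apart here. In bulk RNA, fewer cells of a type and less RNA per cell cannot be told apart.

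**Figure D1:**
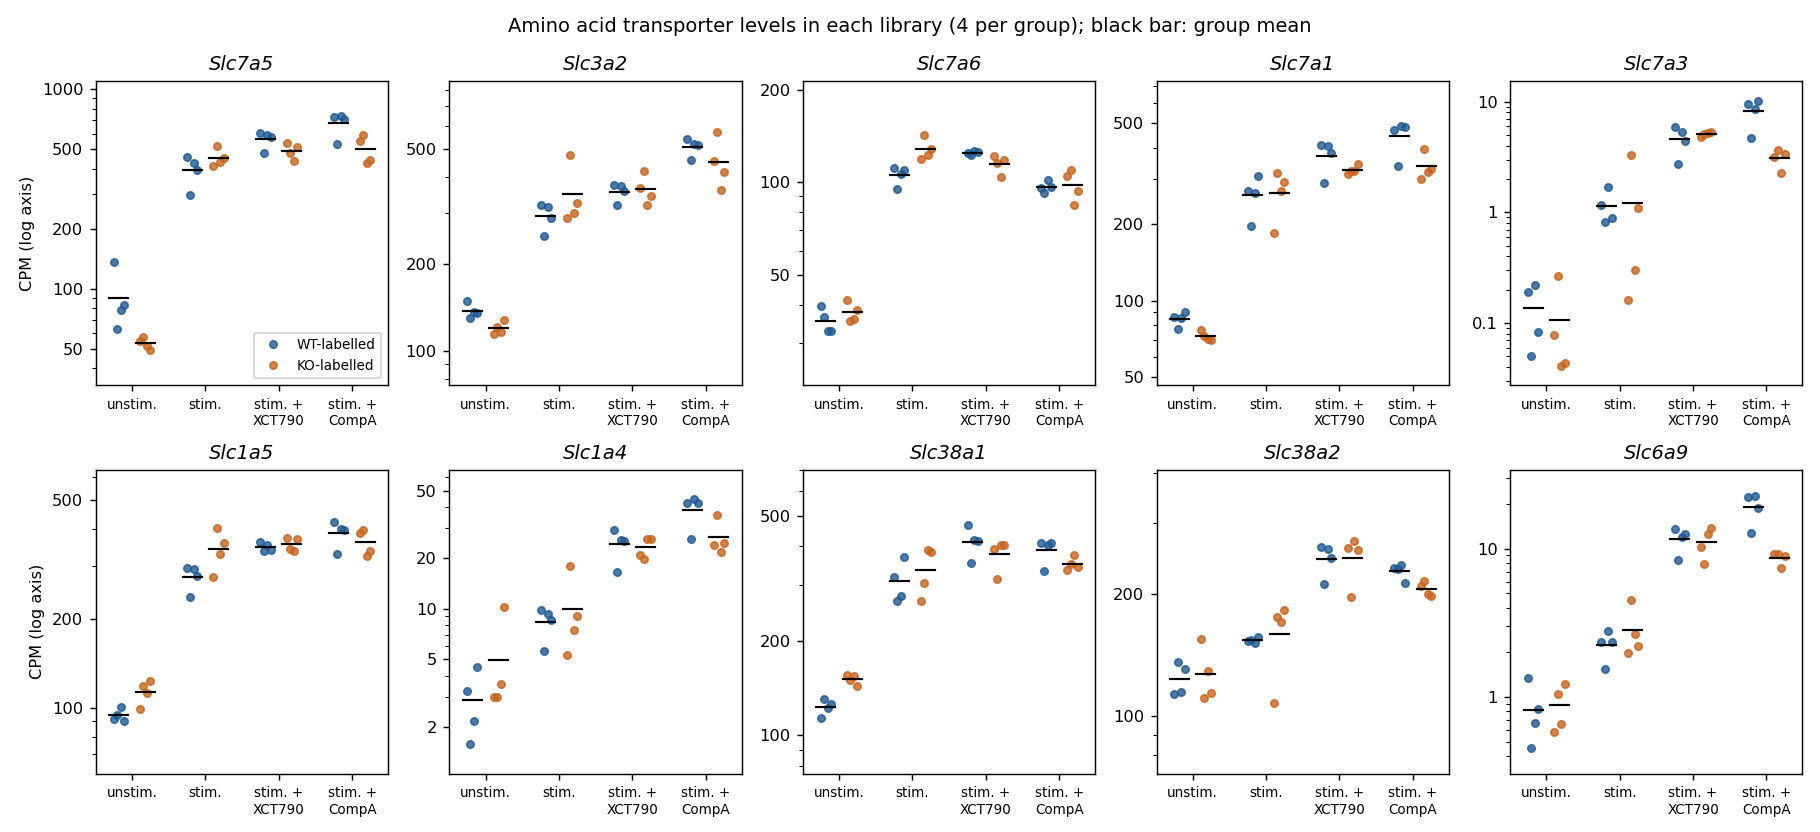
Level of each transporter gene in every library, in CPM on a log axis, for the 4 conditions on the x axis; blue points are WT and orange points KO-labelled libraries, and the black bar is the mean of 4. Every stimulated group sits above its unstimulated group on average, and Slc6a9, Slc7a3 and Slc1a4 climb again with XCT790 and CompA, from 2.26 to 11.6 and 19.1 CPM for Slc6a9 in WT.

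CPM per kilobase of annotated exon was used to set the genes' levels against each other. In unstimulated WT cells Slc3a2 was the highest of the 10 at 38.9 ± 2.30 CPM per kb (SD, n = 4), followed by Slc7a5 at 24.3 ± 8.55 and Slc1a5 at 22.6 ± 1.13. Slc38a2 was intermediate at 14.0 ± 1.31 CPM per kb. Slc7a6, Slc7a1 and Slc38a1 were close together at 7.75 ± 0.713, 7.35 ± 0.461 and 7.13 ± 0.423 CPM per kb. Slc1a4, Slc6a9 and Slc7a3 were far lower, at 0.732 ± 0.329, 0.160 ± 0.0730 and 0.0362 ± 0.0218 CPM per kb. After stimulation Slc7a5 led at 106 ± 18.8 CPM per kb, ahead of Slc3a2 at 82.9 ± 9.11 and Slc1a5 at 66.1 ± 6.58, and the 3 low genes remained the lowest, at 2.12, 0.440 and 0.303 CPM per kb.

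Stimulation raised the whole set. In WT cells 10 of 10 genes were higher at an adjusted p under 0.05 (edgeR's quasi-likelihood test with Benjamini-Hochberg adjustment over the 12332 genes, the rule for every call below), where 34.5 percent of all tested genes were called higher. KO-labelled cells gave 10 of 10 as well, against 39.3 percent of all genes. The 10 were chosen with earlier results of these data known, so these counts describe the set and are no independent evidence. The median log2 fold change of the 10 was 1.53 in WT and 1.64 in KO-labelled cells, beside -0.11 and -0.07 over all tested genes. With the subtraction all 10 were called in WT, with a median of 1.84, where 36.8 percent of all genes were called higher. Taking away part of the unstimulated level widens any rise over that level by construction, so this is no separate check. It likewise lifts genes that stimulation raised in the WT stimulated group. Differences of such genes against that group are thus lowered, and interactions that use it are shifted, by construction. The smallest rise was that of Slc38a2 and the largest that of Slc7a3 in both genotypes, from 0.31 to 3.08 in WT and from 0.33 to 3.397 in KO-labelled cells. All 10 were also above unstimulated cells in the groups given XCT790 (37.7 percent of all genes called higher in WT, 39.6 in KO-labelled cells) and CompA (37.2 and 39.2 percent). The comparisons share their unstimulated libraries.

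Slc7a5 (chromosome 8, 121881150 to 121907694, GRCm38), the light chain LAT1 that carries leucine and other large neutral amino acids, had the steepest rise of the abundant genes. The 4 WT unstimulated libraries read 136, 62.7, 78.7 and 83.4 CPM and the WT stimulated ones 456, 297, 430 and 392 CPM. KO-labelled cells went from 55.1, 57.3, 52.1 and 49.6 CPM to 412, 519, 434 and 450 CPM. The unstimulated KO-labelled libraries were all below the lowest WT library, whereas the stimulated groups overlapped. The rise was 4.37-fold in WT (log2 2.13 ± 0.17 SE, adjusted p = 6.95e-12) and 8.48-fold in KO-labelled cells (log2 3.08 ± 0.18, adjusted p = 2.11e-15). Replicate 1 stood high among the WT unstimulated libraries. Slc7a5 took its highest level in WT cells given CompA (676 ± 95.6 CPM) and its lowest in KO-labelled unstimulated cells (53.5 ± 3.39 CPM). Along the order of the 8 group means, neighbours overlapped except at the steps from stimulated to unstimulated WT and from unstimulated WT to unstimulated KO-labelled cells.

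Slc3a2 (chromosome 19, 8706882 to 8723369), the CD98 heavy chain, rose less than its partner. It read 149, 130, 136 and 134 CPM in unstimulated and 320, 250, 314 and 287 CPM in stimulated WT libraries, a 2.13-fold rise (log2 1.09 ± 0.13, adjusted p = 2.80e-08). In KO-labelled cells it went from 114, 121, 116 and 128 to 288, 476, 300 and 325 CPM, 2.90-fold (log2 1.54 ± 0.13, adjusted p = 1.70e-11). No stimulated library came down to the unstimulated range, and KO-labelled replicate 2 was well above the other 3. CompA gave the highest levels, 508 ± 36.3 (WT) and 449.9 ± 89.9 CPM (KO-labelled). Per kilobase, the geometric mean of Slc7a5 over Slc3a2 went from 0.600 to 1.27 with stimulation in WT and from 0.426 to 1.27 in KO-labelled cells, with no overlap between libraries in either. The exact two-sided permutation test gave p = 0.0286 for both, the smallest that 4 against 4 libraries allow. After adjustment over the 80 ratio tests run it was 0.0532, and no ratio passed 0.05. The adjusted value depends on how many of these tests, which share libraries, reached the smallest p.

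Slc7a6 (chromosome 8, 106168857 to 106198706), the light chain y+LAT2 that exchanges cationic for neutral amino acids and shares CD98 with LAT1, rose with stimulation but was lower with CompA in KO-labelled cells. Its WT libraries read 39.6, 36.4, 32.9 and 32.8 CPM unstimulated and 112, 95.0, 106 and 110 CPM stimulated, a 2.98-fold rise (log2 1.58 ± 0.08, adjusted p = 9.59e-16). The KO-labelled rise was 3.39-fold, from 37.8 ± 2.82 to 128 ± 10.4 CPM (adjusted p = 3.48e-17). With CompA the 4 KO-labelled libraries read 105, 110, 84.7 and 93.9 CPM, all below the 119 to 143 CPM of the KO-labelled stimulated libraries. The difference was -0.38 ± 0.08 on the log2 scale (a fall; adjusted p = 0.00144), and Slc7a6 was the only one of the 10 called lower with an inhibitor. In WT the CompA libraries read 96.2, 92.7, 102 and 96.8 CPM and overlapped the stimulated ones (log2 -0.12 ± 0.08, adjusted p = 0.252). With the subtraction, which lowers it by construction, the same WT difference was -0.48 ± 0.08 (adjusted p = 9.62e-05). With library totals in place of TMM it was -0.19 (adjusted p = 0.0389). The ratio of Slc7a5 to Slc7a6 per kilobase went through 3.02, 4.54, 5.56 and 8.53 from unstimulated to stimulated, XCT790 and CompA in WT, and through 1.75, 4.35, 5.28 and 6.28 in KO-labelled cells. The CompA libraries had ratios above all stimulated libraries of their genotype (exact permutation p = 0.0286, adjusted 0.0532, for each).

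**Figure D2:**
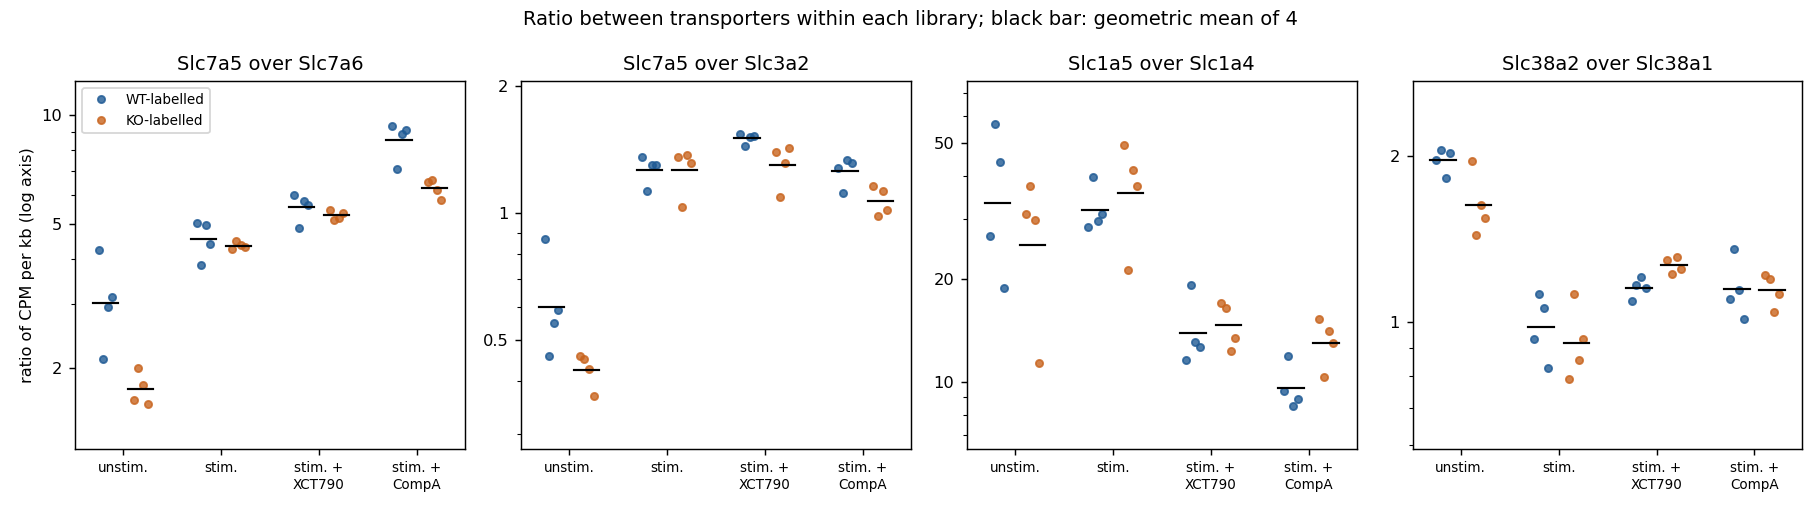
Ratio of 2 transporters within each library, from CPM per kilobase, on a log axis for the 4 conditions; blue points are WT, orange points KO-labelled libraries, and the bar is the geometric mean of 4. Slc7a5 over Slc7a6 is highest with CompA (8.53 in WT, 6.28 in KO-labelled cells), Slc1a5 over Slc1a4 is lowest with the inhibitors, and Slc38a2 over Slc38a1 is highest in unstimulated cells.

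Of the cationic amino acid carriers, Slc7a1 (chromosome 5, 148327410 to 148399904), which encodes CAT1, was abundant and Slc7a3 (chromosome X, 101079210 to 101086020), which encodes CAT3, was scarce. Slc7a1 rose 3.07-fold in WT, from 84.8 ± 5.32 to 260 ± 46.6 CPM (log2 1.62 ± 0.14, adjusted p = 7.78e-11), and 3.68-fold in KO-labelled cells, from 72.3 ± 3.11 to 266 ± 57.3 CPM (adjusted p = 1.60e-12). Its stimulated libraries were all above its unstimulated ones. Slc7a3 had only 10 counts over the 4 WT unstimulated libraries, and 10 over the 4 KO-labelled ones. It read 1.17, 0.825, 1.70 and 0.893 CPM in WT stimulated libraries and 0.161, 3.27, 0.300 and 1.09 CPM in KO-labelled ones. KO-labelled replicate 2 thus lay far above its group, and the KO-labelled stimulated and unstimulated ranges overlapped. The fitted rises were 8.45-fold in WT (log2 3.08 ± 0.69, adjusted p = 2.81e-04) and 10.5-fold in KO-labelled cells (log2 3.397 ± 0.68, adjusted p = 5.18e-05), and at these counts they depend on the prior count of the fit.

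Slc1a5 (chromosome 7, 16781340 to 16798274), the glutamine carrier ASCT2, and Slc1a4 (chromosome 11, 20302180 to 20332713), the serine, alanine and cysteine carrier ASCT1, belong to 1 family but were far apart in level. Slc1a5 rose 2.92-fold in WT, from 94.5 ± 4.70 to 276 ± 27.5 CPM (log2 1.55 ± 0.10, adjusted p = 7.55e-14), and 3.02-fold in KO-labelled cells, from 114 ± 10.5 to 342 ± 53.3 CPM (adjusted p = 1.69e-14). Slc1a4 read 3.25, 1.58, 2.17 and 4.51 CPM in WT unstimulated and 9.84, 5.61, 9.33 and 8.51 CPM in WT stimulated libraries. The WT groups did not overlap, and the rise was 2.86-fold (log2 1.52 ± 0.38, adjusted p = 8.48e-04). KO-labelled libraries read 3.01, 2.99, 3.55 and 10.3 CPM unstimulated and 5.31, 17.97, 7.45 and 9.03 CPM stimulated. Those groups overlapped through replicate 4 of the unstimulated and replicate 1 of the stimulated libraries, and the 2.00-fold rise (log2 1.00 ± 0.36, adjusted p = 0.0120) was no longer called without KO-labelled stimulated replicate 2 (adjusted p = 0.133), with library totals (0.0864), with upper-quartile factors (0.0553) or in a fit of the compared groups alone (0.0751).

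The start of Slc1a4 carried the 1 match found in a search of the transporters' promoters, and it is shown because Slc1a4 was among the 3 genes that moved most with the inhibitors. RefSeq promoters (GRCm38.p6, 250 bases before to 50 after each start) were at hand for 6 of the 10 genes, in 10 windows. They were searched on both strands for TGATGNAA, the core of the C/EBP-ATF response element (CARE) that ATF4 binds, and for CACGTG, the E-box that Myc binds. No window held both motifs. The window chr11:20332699-20332728 on the minus strand, which is the gene's own, reads as follows, with the motif on the opposite strand in capitals, beginning 4 bases before the start.
Slc1a4: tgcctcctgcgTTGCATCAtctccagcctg
The other 9 windows, those of Slc6a9, Slc7a1, Slc7a6, Slc3a2 and Slc38a2, held neither set of letters. Over all 32851 RefSeq promoters of that length, 3.97 percent held TGATGNAA and 7.15 percent CACGTG. A match is a description of letters and shows no binding, and no match says only that the letters are not in these windows.

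Slc38a1 (SNAT1) and Slc38a2 (SNAT2), both sodium-coupled carriers of glutamine, alanine and other small neutral amino acids, are neighbours on chromosome 15 (96571418 to 96642913 and 96687392 to 96699730), the chromosome that also holds Nr4a1 (101254269 to 101274795). Slc38a1 rose 2.51-fold in WT, from 123 ± 7.29 to 309 ± 46.6 CPM (log2 1.33 ± 0.11, adjusted p = 3.31e-11), and 2.23-fold in KO-labelled cells, from 151 ± 5.25 to 336 ± 59.9 CPM (adjusted p = 2.40e-10). Slc38a2 read 114, 136, 114 and 131 CPM in WT unstimulated and 153, 154, 151 and 157 CPM in WT stimulated libraries. Its stimulated libraries lay in a narrow band just above the unstimulated ones, 1.24-fold higher (log2 0.31 ± 0.12, adjusted p = 0.0244). KO-labelled cells gave 156, 111, 129 and 114 CPM unstimulated and 108, 176, 171 and 183 CPM stimulated, overlapping ranges with a 1.25-fold rise (log2 0.33 ± 0.12, adjusted p = 0.0168). These small rises depended on the scaling: with library totals the log2 values were 0.22 in WT (adjusted p = 0.162) and 0.0024 in KO-labelled cells (adjusted p = 0.988). Leaving out any 1 of 2 WT or 5 KO-labelled libraries also ended the call for Slc38a2, with adjusted p up to 0.128 without WT unstimulated replicate 3 and 0.109 without KO-labelled stimulated replicate 4. Per kilobase, Slc38a2 over Slc38a1 went from 1.96 to 0.980 in WT and from 1.63 to 0.918 in KO-labelled cells, with no overlap in either (exact permutation p = 0.0286, adjusted 0.0532).

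Slc6a9 (chromosome 4, 117834506 to 117875198), the glycine carrier GlyT1 best known from brain and erythroid cells, started low. It read 1.34, 0.457, 0.667 and 0.835 CPM in WT unstimulated and 2.34, 1.54, 2.79 and 2.36 CPM in WT stimulated libraries. KO-labelled cells went from 0.586, 1.05, 0.661 and 1.22 to 1.99, 4.51, 2.65 and 2.22 CPM. The groups did not overlap in either genotype. The rises were 2.78-fold in WT (log2 1.48 ± 0.32, adjusted p = 1.54e-04) and 3.20-fold in KO-labelled cells (log2 1.68 ± 0.30, adjusted p = 9.29e-06).

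**Figure D3:**
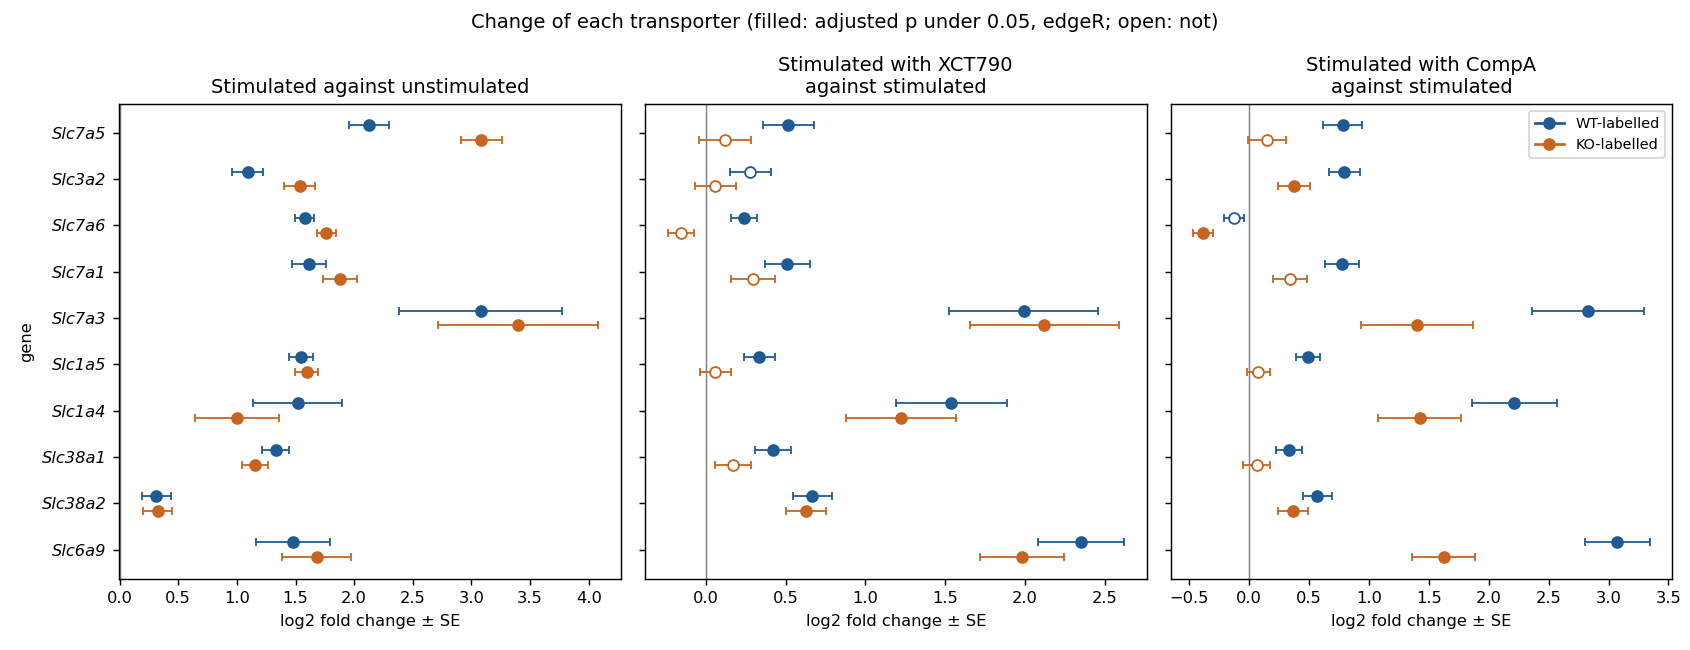
Log2 fold change of each transporter with its standard error for stimulation, for XCT790 and for CompA, in WT (blue) and KO-labelled cells (orange); filled points passed the adjusted p threshold of 0.05. The 10 genes are higher with stimulation in both genotypes, and with the inhibitors Slc6a9, Slc7a3 and Slc1a4 stand to the right of the other 7, at log2 values of 1.54 to 3.07 in WT.

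XCT790 added to stimulation raised 9 of the 10 genes in WT, where 8.40 percent of all tested genes were called higher, with a median log2 change of 0.51 for the 10 and -0.01 over all genes. Slc6a9 changed most. Its XCT790 libraries read 13.5, 8.44, 11.9 and 12.5 CPM in WT, 5.11-fold above stimulation alone (log2 2.35 ± 0.27, adjusted p = 5.79e-08), and 10.3, 7.94, 12.6 and 13.8 CPM in KO-labelled cells, 3.95-fold above (log2 1.98 ± 0.26, adjusted p = 2.51e-05). Both groups lay wholly above the stimulated libraries of their genotype. Slc7a3 reached 5.91, 2.73, 5.28 and 4.45 CPM in WT (3.98-fold, log2 1.99 ± 0.47, adjusted p = 0.00150) and 4.81, 5.09, 5.21 and 5.32 CPM in KO-labelled cells (4.35-fold, log2 2.12 ± 0.47, adjusted p = 0.00388). Slc1a4 reached 29.3, 16.5, 25.6 and 25.3 CPM in WT (2.90-fold, log2 1.54 ± 0.35, adjusted p = 0.00106) and 20.7, 19.7, 25.8 and 26.0 CPM in KO-labelled cells (2.34-fold, log2 1.22 ± 0.34, adjusted p = 0.0206). For these carriers too, no XCT790 library came down to the stimulated range. Slc38a2, which stimulation had barely moved, rose 1.59-fold in WT to 245 ± 22.4 CPM (log2 0.67 ± 0.12, adjusted p = 1.03e-04) and 1.55-fold in KO-labelled cells to 247 ± 33.5 CPM (log2 0.63 ± 0.12, adjusted p = 0.00160). These 4 were the genes called in KO-labelled cells, 4 of 10 against 6.20 percent of all genes. Fitted to the compared groups alone, 1 of the 4 remained called, Slc6a9, and leaving out any 1 of 4 libraries ended the call of Slc1a4 (adjusted p 0.0519 to 0.0889; KO-labelled stimulated replicates 1, 3 and 4 and XCT790 replicate 3).

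The other 5 genes called with XCT790 in WT changed less and were not called in KO-labelled cells. They were Slc7a1 (log2 0.51 ± 0.14, adjusted p = 0.00623), Slc7a5 (0.52 ± 0.16, adjusted p = 0.0163), Slc7a6 (0.24 ± 0.08, adjusted p = 0.0272), Slc1a5 (0.34 ± 0.10, adjusted p = 0.00953) and Slc38a1 (0.42 ± 0.11, adjusted p = 0.00469). In KO-labelled cells the same differences were 0.30, 0.12, -0.16, 0.06 and 0.17. Slc3a2 was not called in either, at 0.28 ± 0.13 and 0.06 ± 0.13, although with the replicate block it was called in WT (0.28, adjusted p = 0.00958). The macrophage marker sum moved along with these WT differences, from 437 to 1082 CPM in stimulated to 6.47 to 13.4 CPM in XCT790 libraries, and its part in them was not tested. With the subtraction none of the 5 was called in WT: Slc7a1 was at 0.18 (adjusted p = 0.498), Slc7a5 at 0.14 (0.670), Slc7a6 at -0.11 (0.448), Slc1a5 at -0.0037 (0.994) and Slc38a1 at 0.10 (0.655). Slc6a9 (2.03 ± 0.27, adjusted p = 3.83e-05), Slc7a3 (1.57 ± 0.48, adjusted p = 0.0464), Slc1a4 (1.22 ± 0.35, adjusted p = 0.0321) and Slc38a2 (0.55 ± 0.13, adjusted p = 0.00864) stayed called. Under the subtraction 3.81 percent of all genes were called higher. The subtraction lowers these differences by construction for genes that stimulation raised, so the lost calls are no separate check. Without WT stimulated replicate 2, the library with the largest retained share, Slc7a5, Slc7a6 and Slc1a5 also lost their calls (adjusted p 0.0871, 0.117 and 0.0598). With library totals in place of TMM, 6 genes were called in WT, without Slc7a6 (adjusted p = 0.125), Slc1a5 (0.0625) and Slc38a1 (0.0728).

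**Figure D4:**
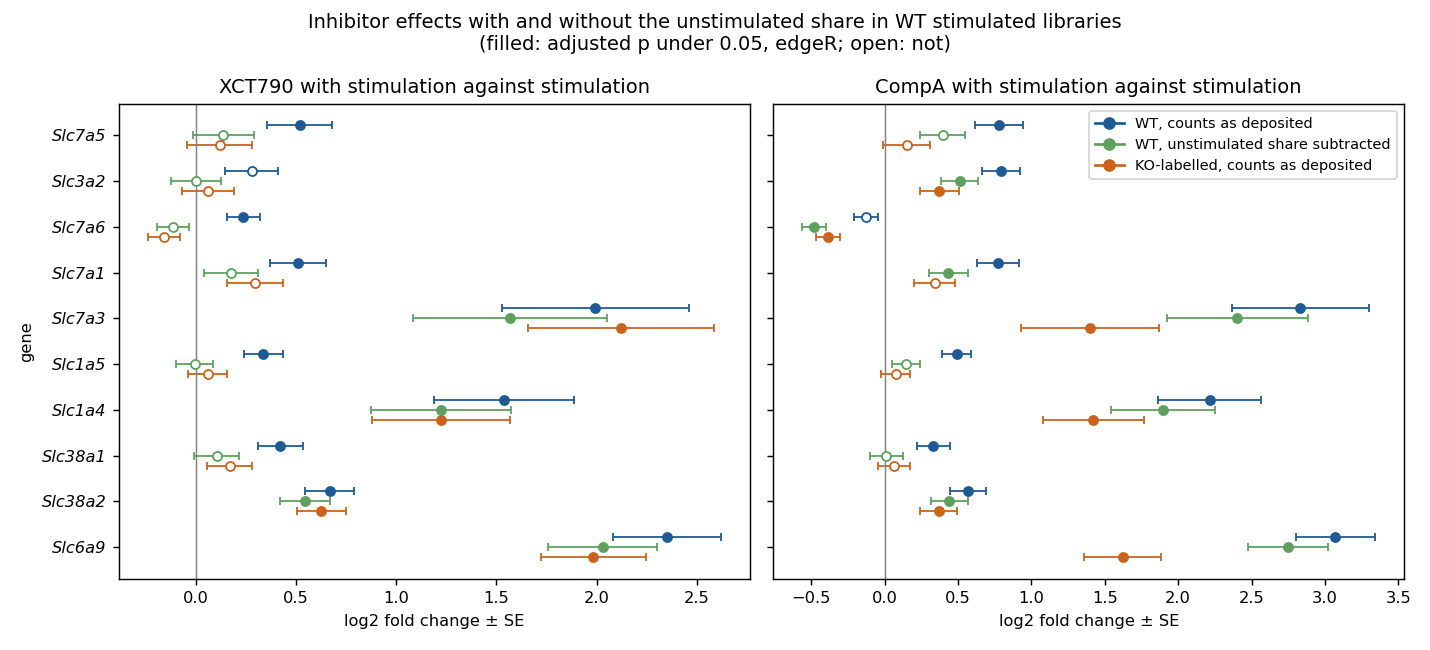
Log2 fold change with its standard error for XCT790 (left) and CompA (right) against stimulation alone, in WT from the deposited counts (blue), in WT after subtraction of the unstimulated share (green), and in KO-labelled cells (orange); filled points passed the adjusted p threshold of 0.05. With XCT790 the green points of Slc6a9, Slc7a3, Slc1a4 and Slc38a2 stay filled, at 2.03, 1.57, 1.22 and 0.55, and the other 6 do not.

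CompA raised 9 of 10 genes in WT, all but Slc7a6, where 11.6 percent of all genes were called higher. The median log2 change was 0.78, beside -0.04 over all genes. Slc6a9 reached 22.2, 12.7, 22.6 and 18.8 CPM in WT, 8.41-fold above stimulation alone (log2 3.07 ± 0.27, adjusted p = 5.25e-10). Slc7a3 reached 9.46, 4.70, 8.50 and 10.3 CPM (7.12-fold, log2 2.83 ± 0.47, adjusted p = 2.25e-05), and Slc1a4 42.3, 26.0, 44.4 and 42.0 CPM (4.64-fold, log2 2.22 ± 0.35, adjusted p = 1.34e-05). All of these libraries lay above every WT stimulated library, and replicate 2 was the lowest of its group for all 3 genes. Slc3a2 (1.74-fold, adjusted p = 2.12e-05), Slc7a5 (1.72-fold, adjusted p = 4.35e-04), Slc7a1 (1.71-fold, adjusted p = 8.43e-05), Slc38a2 (1.48-fold, adjusted p = 6.32e-04), Slc1a5 (1.41-fold, adjusted p = 2.54e-04) and Slc38a1 (1.26-fold, adjusted p = 0.0219) rose by less. With the subtraction 7 genes were called, 6 higher and Slc7a6 lower, where 11 percent of all genes were higher and 10.7 percent lower. Slc7a5 (0.40, adjusted p = 0.0626), Slc1a5 (0.15, adjusted p = 0.280) and Slc38a1 (0.01, adjusted p = 0.956) were then not called. By construction the subtraction lowers the value of a gene that stimulation raised, Slc7a6 included. Macrophage markers summed to 6.82 to 11.3 CPM in these CompA libraries.

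In KO-labelled cells CompA raised 5 of 10 genes (10.2 percent of all genes called higher) and lowered Slc7a6 (9.11 percent called lower), with a median of 0.35 beside 0.03 over all genes. Slc6a9 read 9.22, 9.14, 7.46 and 8.96 CPM, 3.08-fold above stimulation (log2 1.62 ± 0.26, adjusted p = 9.89e-05). Slc1a4 read 23.9, 36.1, 21.7 and 24.5 CPM (2.68-fold, log2 1.42 ± 0.35, adjusted p = 0.00429), and Slc7a3 3.15, 3.63, 2.26 and 3.39 CPM (2.64-fold, log2 1.40 ± 0.47, adjusted p = 0.0356). Slc6a9 and Slc1a4 lay above all KO-labelled stimulated libraries, while Slc7a3 overlapped them through stimulated replicate 2. Slc3a2 (log2 0.37, adjusted p = 0.0413) and Slc38a2 (log2 0.37, adjusted p = 0.0346) rose slightly, and Slc7a5, Slc7a1, Slc1a5 and Slc38a1 were not called, at log2 0.15, 0.34, 0.08 and 0.06. The calls of Slc7a3, Slc3a2 and Slc38a2 were each lost under 7 of the 15 alternatives. These 3 were the calls lost in a fit of the compared groups alone and without stimulated replicate 1, CompA replicate 1 or CompA replicate 2, each of which left 3 genes. With the run of 4 library numbers as a replicate block Slc7a1 was called as well, for CompA (0.35, adjusted p = 0.00911) and for XCT790 (0.31, adjusted p = 0.0252).

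The 2 inhibitors were given at the same dose and for the same time, and both comparisons above share the stimulated libraries. Set directly against XCT790 in WT, CompA gave higher Slc3a2, at 539, 455, 521 and 516 against 374, 318, 371 and 358 CPM (log2 0.52 ± 0.13, adjusted p = 0.0104). It gave lower Slc7a6, at 92.7 to 102 against 122 to 126 CPM (log2 -0.36 ± 0.08, adjusted p = 0.00397). Neither pair of groups overlapped. That is 1 of 10 genes higher and 1 lower, against 5.08 and 4.33 percent of all genes. Slc6a9 (log2 0.72 ± 0.24, adjusted p = 0.0577), Slc7a3 (0.84 ± 0.42, adjusted p = 0.239) and Slc1a4 (0.68 ± 0.33, adjusted p = 0.228) had higher means with CompA but overlapped between the inhibitors. All 3 were called when only the 2 groups were fitted, which made 5 genes in all. Slc6a9 was also called with the replicate block (0.71, adjusted p = 0.00739), with DESeq2 (adjusted p = 0.0262), with library totals (0.0488) and without WT CompA replicate 2 (0.0267). In KO-labelled cells 0 of 10 genes differed between the inhibitors (3.24 percent of all genes in either direction; edgeR gave 3 genes at an unadjusted p under 0.05 and DESeq2 called 0). Slc6a9 and Slc7a3 had lower means there with CompA than with XCT790 (log2 -0.36 ± 0.24 and -0.72 ± 0.43), and Slc7a3 did not overlap between the inhibitors (adjusted p = 0.477). With the replicate block Slc3a2 was called, 0.30 higher with CompA (adjusted p = 0.0253).

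Between genotypes, unstimulated cells differed in 3 genes. Slc7a5 was lower in KO-labelled cells, 49.6 to 57.3 against 62.7 to 136 CPM (1.68-fold, log2 -0.75 ± 0.17, adjusted p = 0.00142), as 1 of 10 genes where 23.6 percent of all genes were called lower. Slc1a5 was higher at 114 ± 10.5 against 94.5 ± 4.70 CPM (log2 0.26 ± 0.10, adjusted p = 0.0376), as was Slc38a1 at 151 ± 5.25 against 123 ± 7.29 CPM (log2 0.30 ± 0.11, adjusted p = 0.0403), 2 of 10 against 12.5 percent of all genes. Slc38a1 did not overlap between genotypes and Slc1a5 did. These 2 calls were lost without 1 of 6 libraries for Slc38a1 (adjusted p up to 0.0924, without WT replicate 1) and 1 of 4 for Slc1a5 (up to 0.102, without KO-labelled replicate 4), and the count fell to 1 without KO-labelled replicate 2 or 3. The macrophage marker sum was also lower in the KO-labelled unstimulated libraries, 735 to 1686 against 1802 to 2787 CPM, and its part in these differences was not tested. Library totals in place of TMM turned the split of calls over all genes from 34.6 to 71.7 percent higher and moved their median from -0.08 to 0.13, and Slc7a6 was then called higher in KO-labelled cells (0.31, adjusted p = 0.00300).

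After stimulation Slc7a6 (119 to 143 against 95.0 to 112 CPM, log2 0.28 ± 0.08, adjusted p = 0.0112) and Slc1a5 (277 to 404 against 236 to 295 CPM, log2 0.31 ± 0.10, adjusted p = 0.0185) were higher in KO-labelled cells, 2 of 10 genes against 7.31 percent of all genes. Slc7a6 did not overlap between genotypes. With the subtraction neither was called, and the values of all 10 genes turned from higher to lower in KO-labelled cells: Slc7a6 was at -0.078 (adjusted p = 0.660) and Slc1a5 at -0.034 (adjusted p = 0.905). All 10 were raised by stimulation, and the subtraction lifts such genes in the WT stimulated group by construction. The turns are therefore no separate check. Fitted to the 2 groups alone, or without WT stimulated replicate 2, edgeR called 0 of the 10, and the count was 1 without KO-labelled stimulated replicate 4. With XCT790, 0 of 10 genes differed between genotypes (9.51 percent of all genes in either direction; 0 at an unadjusted p under 0.05, and 0 called by DESeq2), and the log2 differences ran from -0.19 for Slc7a5 to 0.15 for Slc7a3. With CompA, Slc6a9 (7.46 to 9.22 against 12.7 to 22.6 CPM, log2 -1.14 ± 0.25, adjusted p = 0.00332) and Slc7a3 (2.26 to 3.63 against 4.70 to 10.3 CPM, log2 -1.41 ± 0.43, adjusted p = 0.0401) were lower in KO-labelled cells. Neither overlapped between genotypes, and 1.88 percent of all genes were called lower. Slc7a3 was no longer called without any 1 of 7 of the 8 libraries (adjusted p 0.0603 to 0.135), which left Slc6a9 alone, and WT CompA replicate 2 was the exception. Neither comparison uses the WT stimulated libraries.

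The tests of the difference between genotypes in the response itself gave 5 calls. The stimulation response of Slc7a5 was larger in KO-labelled cells by 0.96 ± 0.23 on the log2 scale (adjusted p = 0.00352), 1 of 10 genes against 17.2 percent of all genes called in that direction. This was so although stimulated levels did not differ by the test (log2 0.20 ± 0.16, adjusted p = 0.371), and with the subtraction it was 0.57 (adjusted p = 0.0967), while Slc38a1 was then called with a smaller response in KO-labelled cells (-0.50, adjusted p = 0.0497). Slc3a2 was called too with the replicate block (0.42, adjusted p = 0.00629), with DESeq2 (0.48, adjusted p = 0.0311), and without WT stimulated replicate 1, WT unstimulated replicate 2, 3 or 4, or KO-labelled stimulated replicate 1 or 3 (0.47 to 0.57). The XCT790 response of Slc7a6 was lower in KO-labelled cells by 0.40 ± 0.12 (log2 -0.40, adjusted p = 0.0122), where 7.23 percent of all genes were called lower. With the subtraction it was -0.04 (unadjusted p = 0.726), and edgeR then called 0 of 12315 genes in the XCT790 interaction. The block added Slc7a5 (-0.41, adjusted p = 0.0331), and leaving out KO-labelled stimulated replicate 1 added Slc1a5 (-0.38, adjusted p = 0.0244). The CompA responses of Slc6a9 (log2 -1.45 ± 0.37, adjusted p = 0.00552), Slc7a5 (-0.63 ± 0.23, adjusted p = 0.0484) and Slc1a5 (-0.41 ± 0.14, adjusted p = 0.0313) were lower, 3 of 10 genes against 5.99 percent. Of 24 alternatives, 14 ended the call of Slc7a5, 8 that of Slc1a5 and 1 that of Slc6a9. All 3 lost the call with the subtraction, under which edgeR called 0 of 12315 genes in this interaction and 418 had an unadjusted p under 0.05. Slc6a9 then stood at -1.12 ± 0.37 (unadjusted p = 0.00565). The count was between 1 and 7 when single libraries were left out: 1 without WT stimulated replicate 2, 7 without KO-labelled stimulated replicate 1. It was 1 also without WT CompA replicate 4, KO-labelled CompA replicate 3 or 4 or KO-labelled stimulated replicate 4, and 6 without WT CompA replicate 2. The block gave 5, with Slc7a1 (-0.43, adjusted p = 0.0210) and Slc3a2 (-0.42, adjusted p = 0.00860) added.

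Single libraries moved many of the genes together. WT replicate 2 was the lowest library for 9 of 10 genes in the stimulated, 10 of 10 in the XCT790 and 9 of 10 in the CompA group. KO-labelled replicate 1 was the lowest for 10 of 10 genes among the stimulated libraries, and KO-labelled replicate 2 the highest for 8 of 10 in the stimulated and 8 of 10 in the CompA group. WT replicate 2 kept the largest unstimulated share among the stimulated libraries. KO-labelled replicate 2 was also the highest for B cell markers (8 of 8 listed genes in the files), which reached 679 CPM in its unstimulated and 258 CPM in its stimulated library and ran from 24.6 to 258 CPM over the KO-labelled stimulated group, and their part in its transporter levels was not tested.

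Over the 32 libraries, the gene most like each transporter was found by Pearson's r of log2 CPM, as a description of libraries that share the same 8 groups. Slc6a9 was most like Chac1 (r = 0.98), an enzyme that degrades glutathione, and Cth (r = 0.97), which makes cysteine from cystathionine. Slc1a4 was most like Slc6a9 (0.96) and Cth (0.95), and Slc7a3 most like Slc6a9 (0.96) and Scamp2 (0.96). Slc7a1 went with Fam210a (0.99) and Cars (0.98), a cysteinyl-tRNA synthetase, and Slc7a5 with Slc31a1 (0.99), a copper carrier, and Nars (0.99), an asparaginyl-tRNA synthetase. For Slc7a6 they were Ppan and Mettl2 (0.99 each), for Slc3a2 Aldoa and Rabggta (0.98 each), for Slc1a5 Mafg and Vcp (0.99 each) and for Slc38a1 Ints4 (0.99) and Taf2 (0.98). Slc38a2 was less like any other gene, with Sec23a and Ogt at 0.92 each. Among the 10 themselves, Slc7a1 and Slc7a5 were the most alike (0.98), and Slc7a6 and Slc38a2 the least (0.70).

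Genes around the transporters were taken from lists. Of 43 other amino acid transporter genes listed, 42 were in the files and 22 were tested. Most of those called fell: stimulation raised 2 and lowered 11 in WT (median log2 -0.78), where 38.8 percent of all genes were called lower, and raised 3 and lowered 13 in KO-labelled cells (-0.78), where 42.4 percent were. Slc43a2, which encodes the leucine carrier LAT4, fell from 109 to 37.4 CPM in WT and from 84.7 to 12.2 CPM in KO-labelled cells (log2 -1.54 and -2.79). The lysosomal carriers Slc36a1 (log2 -1.06 and -1.70) and Ctns, which exports cystine (-1.03 and -1.27), fell as well, and so did Slc7a8, the CD98 light chain LAT2 (-1.83 and -3.85). Slc7a11, the cystine carrier xCT that also pairs with CD98 and was named after its values were seen, rose from 0.724 to 1.40 CPM in WT (log2 0.96, adjusted p = 0.0221) and from 0.413 to 2.64 CPM in KO-labelled cells (log2 2.66). The macrophage marker sum fell alongside these transporters, on average from 2303 to 652 CPM in WT and from 1149 to 14.4 CPM in KO-labelled cells, and its part in their falls was not tested. XCT790 raised 3 and lowered 9 of the 22 in WT (median -0.54; 20.2 percent of all genes lower) and raised 3 and lowered 1 in KO-labelled cells (0.23; 5.07 percent lower). CompA raised 4 and lowered 10 in WT (21.3 percent lower) and raised 3 and lowered 1 in KO-labelled cells (9.11 percent lower). With the subtraction, 21 genes were tested in WT. XCT790 raised 1 and lowered 1, where 3.81 percent of all genes were higher and 3.03 percent lower. CompA raised 4 and lowered 2 (11 and 10.7 percent), and stimulation raised 2 and lowered 14 (36.8 and 43.6 percent).

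In the ATF4 pathway list 22 of 24 genes were tested. Stimulation raised 13 and lowered 7 in WT (median log2 0.53), where 34.5 percent of all genes were higher and 38.8 percent lower. It raised 14 and lowered 6 in KO-labelled cells (0.97), where the shares were 39.3 and 42.4 percent, with Shmt2, Psat1 and Phgdh, enzymes of serine and folate metabolism, rising 6.06-, 6.07- and 3.33-fold in WT. XCT790 raised 9 and lowered 3 in WT, where 8.40 percent of all genes were higher and 20.2 percent lower. It raised 6 and lowered 1 in KO-labelled cells (6.20 and 5.07 percent of all genes). CompA raised 10 and lowered 2 in WT (11.6 and 21.3 percent) and raised 5 and lowered 1 in KO-labelled cells (10.2 and 9.11 percent). With the subtraction the WT counts were 3 raised and 0 lowered for XCT790, where 3.81 percent of all genes were higher. For CompA they were 10 and 0, where 11 percent of all genes were higher. Chac1 rose 8.45-fold with XCT790 and 18.8-fold with CompA in WT and 6.28- and 6.75-fold in KO-labelled cells. Cth rose 6.62- and 19.5-fold in WT and 4.54- and 4.38-fold in KO-labelled cells, and Trib3, a pseudokinase, 3.28- and 8.07-fold and 3.82- and 4.09-fold.

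The 20 cytosolic aminoacyl-tRNA synthetases, which load amino acids onto tRNA, all rose with stimulation in both genotypes (median log2 1.51 in WT and 1.85 in KO-labelled cells). Over all genes 34.5 percent were called higher in WT and 39.3 percent in KO-labelled cells. With XCT790 15 rose in WT, where 8.40 percent of all genes were called higher. In KO-labelled cells 0 rose and 2 fell, beside 6.20 and 5.07 percent of all genes. With CompA 14 rose in WT and 1 in KO-labelled cells, beside 11.6 and 10.2 percent of all genes. By the interaction test 15 had a lower CompA response in KO-labelled cells, where 5.99 percent of all genes did. With the subtraction, XCT790 raised 1 and lowered 1 in WT (3.81 and 3.03 percent of all genes) and CompA raised 4 (11 percent). None of the 20 was then called in the CompA interaction, in which edgeR called 0 of all genes. Of 36 tested genes of mTORC1 and amino acid sensing, 17 rose and 8 fell with stimulation in WT and 21 and 11 in KO-labelled cells. The shares of all genes are those given for the ATF4 list. With the subtraction the WT counts were 18 and 10, beside 36.8 and 43.6 percent of all genes. Seh1l and Sec13, subunits of a complex upstream of mTORC1, were up 2.21- and 2.30-fold in WT. XCT790 raised 3 and lowered 1 of the 36 in WT (8.40 and 20.2 percent of all genes). In KO-labelled cells it raised 5 and lowered 4 (6.20 and 5.07 percent). CompA raised 8 and lowered 3 in WT (11.6 and 21.3 percent) and 6 and 5 in KO-labelled cells (10.2 and 9.11 percent). Eif4ebp1, a translation repressor that mTORC1 phosphorylates and likewise named after its values were seen, rose 2.24-fold with XCT790 and 4.88-fold with CompA in WT, and 1.84- and 2.22-fold in KO-labelled cells. In the Myc network 10 of 11 genes were tested. With the subtraction, stimulation raised 3 and lowered 6 of these in WT, beside 36.8 and 43.6 percent of all genes. Mxd4 (log2 -1.60 in WT and -3.95 in KO-labelled cells) and Mxi1 (-0.96 and -1.16) fell with stimulation. Myc itself rose 5.86-fold in WT and 7.42-fold in KO-labelled cells with stimulation (to 418 ± 82.4 and 484 ± 61.4 CPM). It was not called with CompA in WT (log2 0.27 ± 0.13, adjusted p = 0.122).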

How the data were processed

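Poly(A) RNA-seq libraries made with a directional kit gave 1 count file each, and the authors deposited raw counts per gene. Per the submitters' processing notes, the tools included Trimmomatic 0.36, HISAT2 2.1.0, SAMtools, HTSeq 0.9.1, R 3.4.4 and DESeq2 1.18.1, with mouse build mm10. Neither the strand setting nor the annotation version is given in the sources used here. All 5 summary lines of each file stayed out of totals and tests: reads with no feature came to 5.31 to 13.3 percent and ambiguous reads to 1.10 to 2.32 percent. Library totals were 16.0 to 23.7 megacounts, and counting error weighs most on Slc7a3 and Slc6a9.

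Counts were fitted with edgeR 4.0.16 (quasi-likelihood F test, TMM factors, filterByExpr, 1 mean for each of the 8 groups) in R 4.3.3, with 16 pairwise contrasts and 3 interactions, and p-values were adjusted by Benjamini-Hochberg over all 12332 genes. CPM values use the TMM library sizes, and values per kilobase use the union exon length of the GENCODE M21 annotation. The scripts were tested on simulated data. All 10 transporters were tested in every comparison. Genes to be named beside them were Nr4a1, the 2 genes most like each transporter and up to 4 genes of each list. The list genes were those with the smallest adjusted p for stimulation in WT. For ATF4 targets and other transporters, each inhibitor in WT and unstimulated KO-labelled against WT also counted. Not every gene that meets this rule is named in the text. Members and lists were chosen with earlier results of these data known. Alternatives were other scalings, no filter or a higher filter, fits of the compared groups alone, DESeq2 1.42.0, leaving out each library, subtraction of the unstimulated share, and a block for each run of 4 consecutive library numbers (limma 3.58.1 between genotypes). The labels do not say what a run shares. Same-run deviations from group means correlated at 0.19 to 0.69 in every KO-labelled pair of groups. In WT they did so between unstimulated and stimulated (0.37 to 0.56) and between the inhibitors (0.17 to 0.49), and not throughout elsewhere.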

Additional observations from a re-analysis of the deposited data

Results flagged for a closer look

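In 80 groups of 4 libraries (10 genes in 8 groups), 9 had 1 library far from the other 3 relative to the group's range, where chance picks out about 1 in 20. The 10 genes were read in the same libraries and moved together, so the 80 are not independent and the excess cannot be judged. WT CompA replicate 2 was low for 4 genes: Slc7a1 at 338 CPM (others 471 to 487), Slc7a5 at 534 (712 to 733), Slc1a4 at 25.95 (42.0 to 44.4) and Slc38a1 at 333 CPM (403 to 411). KO-labelled CompA replicate 3 was low for Slc6a9 at 7.46 CPM (8.96 to 9.22). KO-labelled XCT790 replicate 2 was low for Slc38a1 at 314 CPM (392 to 403), and KO-labelled stimulated replicate 1 was low for Slc38a2 at 108 CPM (171 to 183). Among unstimulated KO-labelled libraries, replicate 2 was high for Slc7a3 at 0.263 CPM (0.0413 to 0.0782) and replicate 4 high for Slc1a4 at 10.25 CPM (2.99 to 3.55).

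The response differed between genotypes by the interaction test in 5 cases, as KO-labelled minus WT on the log2 scale. For stimulation this was Slc7a5 (0.96). For XCT790 it was Slc7a6 (-0.40). For CompA they were Slc1a5 (-0.41), Slc6a9 (-1.45) and Slc7a5 (-0.63). None of the 5 was called with the unstimulated share subtracted from the WT stimulated libraries. In the XCT790 and CompA interactions edgeR then called 0 of 12315 genes, so a lost call there says nothing about these transporters in particular.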

How the results depend on the processing

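Stimulation calls held for 9 to 10 genes in WT and 8 to 10 in KO-labelled cells when single libraries were left out. The other leave-one-out ranges were 6 to 9 (XCT790 in WT), 3 to 4 (XCT790 in KO-labelled cells), 8 to 9 (CompA in WT), 3 to 7 (CompA in KO-labelled cells) and 2 to 3 (CompA against XCT790 in WT). Between genotypes they were 1 to 3 unstimulated, 0 to 3 stimulated and 1 to 3 with CompA, and for the interactions 1 to 2 (stimulation), 1 to 2 (XCT790) and 1 to 7 (CompA). Fits of the compared groups alone called 0 genes between stimulated genotypes, 1 for XCT790 and 3 for CompA in KO-labelled cells, and 5 for CompA against XCT790 in WT. Library totals gave 1 gene between genotypes with CompA and 1 in the CompA interaction. No filter gave 2 in the stimulation interaction, and DESeq2 gave 2, 2 and 5 in the stimulation, XCT790 and CompA interactions. The replicate block gave 2, 2 and 5 there and 1 for CompA against XCT790 in KO-labelled cells, and changed no other comparison's count by over 1.5 times. With the unstimulated share subtracted, the counts were 4 for XCT790 in WT and 0 between stimulated genotypes. They were 0 and 0 in the XCT790 and CompA interactions, in each of which edgeR then called 0 of 12315 genes. The subtraction turned the sign of 25 of 70 values, among them all 10 between stimulated genotypes, and 4 of these 25 had been called. These were Slc7a6 to -0.11 and Slc1a5 to -0.0037 for XCT790 in WT, and Slc7a6 to -0.078 and Slc1a5 to -0.034 between stimulated genotypes. By construction the subtraction shifts values that use the WT stimulated group, so the turns are no separate check. Except where the alternative itself holds fewer samples or genes, the cause was not tested. Under other scalings the median over all genes moved from -0.11 to -0.33 (stimulation in WT, upper quartile) and from -0.07 to -0.40 (stimulation in KO-labelled cells, library totals), and library totals turned the share of calls that were higher from 29.4 to 16.9 percent for XCT790 in WT and from 51.1 to 22 percent in the stimulation interaction. Depth limits Slc7a3, with 10 counts in each unstimulated group.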
